A study of Mus musculus with 661 samples.

Results

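The 83 cells described here are sorted endothelial cells of mouse bone whose label places them in endothelial cluster E1, E2, E5 or E6, outside the AEC-like clusters E3 and E4 and the SEC-like cluster E7. They are 83 of 307 sorted endothelial cells and 83 of all 661 cells: 14 of E1, 8 of E2, 37 of E5 and 24 of E6. By the study's description, the cells came from wild-type C57BL/6 mice of both sexes, young (about 2 months) or old (about 24 months). Of the 83 cells, 66 were scored for Y-linked genes and 0 for *Xist*, the transcript of the inactive X chromosome. *Xist* may be undercounted, so no sex was assigned to a cell. Arteriolar endothelial cells (AEC) were sorted from the endosteum as Ter119-/CD45-/CD31+/Sca-1hi/CD105lo, and sinusoidal endothelial cells (SEC) from central marrow as Ter119-/CD45-/CD31+/Sca-1lo/CD105hi. Mesenchymal clusters of the same study, M1 with M2 (MSC-L-like), M3 to M5 and M6 to M16, serve as references for mesenchymal RNA. Some wells of M3 to M5 carried blood genes, as given below. The labels name no mouse, so each cluster is 1 sample and every comparison is a description without a test. The clusters were built from the same genes, so a difference between clusters is in part the rule that made them.

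Blood enters marrow through arterioles that run near bone and leaves through sinusoids, wide vessels with a leaky wall that take up material from blood by scavenger receptors. Smooth muscle cells and pericytes wrap arterioles, and mesenchymal stromal cells with leptin receptor lie against sinusoids, where they make CXCL12 and stem cell factor. A cell between arteriolar and sinusoidal endothelium would carry genes of both, and so would a well that received RNA of both, so the content of each well is given beside the levels of each cluster.

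The endothelial label was checked on *Pecam1* (the adhesion protein CD31 used in the sort), *Cdh5* (the junction protein VE-cadherin) and *Emcn* (endomucin, a surface sialomucin). Levels are CPM, counts scaled to a common total of nuclear counts, and a gene is taken as carried by a well at 10 CPM or more. *Pecam1* was carried by 13 of 14 E1, 2 of 8 E2, 36 of 37 E5 and all 24 E6 cells, and *Cdh5* by 13, 3, 34 and 23 of them. *Emcn* was carried by 12 E1, 2 E2, 31 E5 and 23 E6 cells. The label held for nearly all wells of E1, E5 and E6, and went against the data in most wells of E2.

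Pooled over cells, *Pecam1* stood at 224 CPM in E1, 321 in E2, 2179 in E5 and 1790 in E6, against 2911 in E3, 1566 in E4 and 738 in E7. *Cdh5* stood at 287, 64.9, 802 and 730 CPM in the same order, against 594, 630 and 644. E5 and E6 had as much *Cdh5* as the reference clusters or more, while E1 and E2 had less. *Emcn* was at 293 CPM in E1, 125 in E2, 951 in E5 and 1221 in E6, against 275, 896 and 654 in E3, E4 and E7. In E2 the cells split: *Pecam1* had a median of 0 and a highest value of 852 CPM.

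A well was counted as carrying a programme when it carried at least 5 genes of a list: 15 endothelial, 15 mesenchymal, 20 mural (pericyte and smooth muscle), 15 blood and 9 megakaryocyte genes. Of the 83 wells, 58 (69.9%, interval 58.8 to 79.5) carried the endothelial programme and no other: 35 of 37 in E5, 23 of 24 in E6, and none in E1 or E2. By the same count it was 57 of 60 in E3, 53 of 59 in E4 and 96 of 105 in E7. The clusters thus fall into a pair whose wells nearly all held endothelial RNA by these lists (E5 and E6) and a pair whose wells all held a further programme (E1 and E2). Intervals are exact at the 95% level and cover counting error only. Doublets were not called here. The study's table heads E1 as doublets, E2 as pericytes, E5 as arterial and E6 as transition.

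The mesenchymal programme was carried by all 14 E1 wells (100.0%, 76.8 to 100.0), 5 of 8 E2 wells (62.5%), and no well of E5 (limit 8.11%) or E6 (limit 12.5%). In E3, E4 and E7 it was carried by 1 of 60, 5 of 59 and 5 of 105 wells. The blood programme was carried by 1 of 24 E6 wells (4.17%, 0.105 to 21.1) and by none of E1, E2 or E5, against 3 of 105 in E7 and none in E3 or E4. The blood count depends on the marker limit: at 1 CPM the programme was carried by 29.2% of E6 wells (12.6 to 51.1) and 10.8% of E5 wells, and this limit was not applied to E3, E4 or E7. The megakaryocyte programme was carried by 2 of 37 E5 wells (5.41%, 0.661 to 18.2), against 1 of 59 in E4 (1.69%, 0.0429 to 9.09) and none in E3 or E7. Of the 4 clusters, E1 and E2 alone carried the mesenchymal programme, and at 10 CPM a blood or megakaryocyte programme was carried by 3 wells of the 83.

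**Figure D1:**
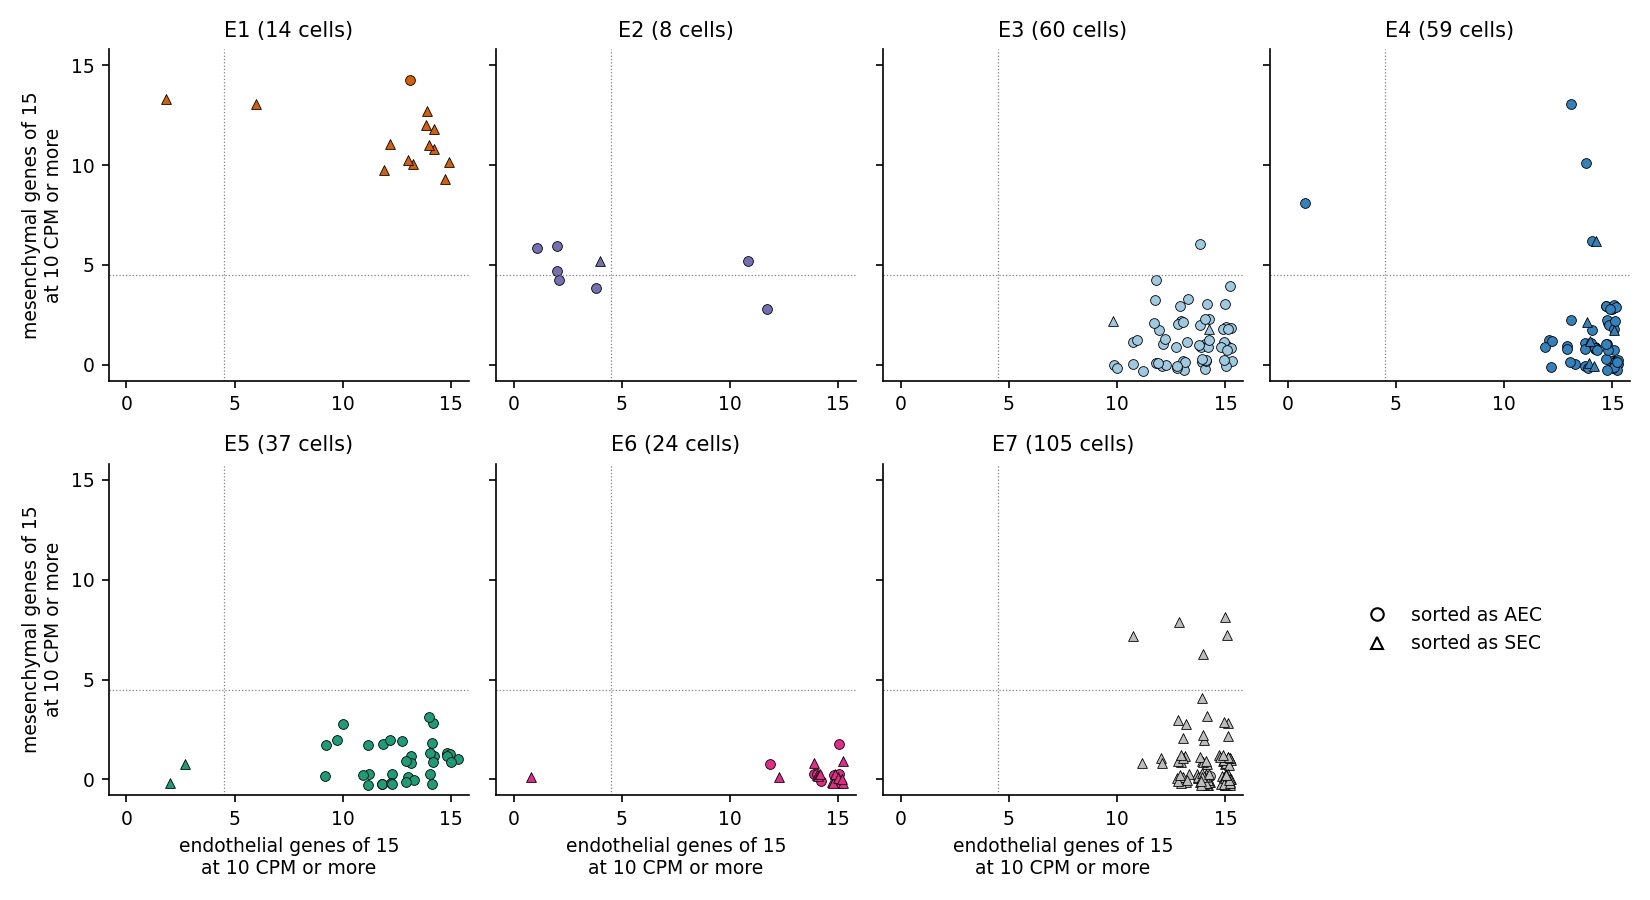
Endothelial and mesenchymal genes carried by each well of E1 to E7, of 15 genes each, at 10 CPM or more. Dotted lines mark the limit of 5 genes. Points are shifted slightly to separate them.

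Depth differed between the clusters. Nuclear counts per cell had a lowest value, median and highest value of 218627, 367159 and 487257 in E1 and of 274931, 353404 and 712039 in E2. They were 79537, 265695 and 661243 in E5 and 115665, 296312 and 689616 in E6, against medians of 443771 in E3, 435164 in E4 and 307689 in E7. With cells thinned to 100000 nuclear counts, which left out 1 cell of E5 and 1 of E7, the median number of genes detected was 6025 in E1, 4892 in E2, 3808 in E5 and 4930 in E6, against 3914 in E3, 4865 in E4 and 4782 in E7. At equal depth E1 had the highest median of any endothelial cluster, and the E5 median was near that of E3. The ranges overlap: E1 wells ran from 4795 to 6971 genes, and the highest wells of E4 and E6 held 7347 and 7059.

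Cluster E1 carried sinusoidal endothelial and MSC-L RNA in the same wells. Of 14 wells, 13 (92.9%, 66.1 to 99.8) carried both the endothelial and the mesenchymal programme, against 0 of 136 wells of M1 with M2. Both were also carried by 1 of 60 wells in E3, 4 of 59 in E4 and 5 of 105 in E7. Of the 15 mesenchymal genes 9 guided the clustering, and with the other 6 alone 21.4% of E1 wells carried at least 5 mesenchymal genes, in place of 100.0%. Endothelial genes per well ran from 2 over a median of 13.5 to 15, and mesenchymal genes from 9 over 11 to 14. Across 13795 genes, the correlation of pooled log2 levels was 0.793 with E7, 0.791 with M1 and M2, and 0.690 with E3 and E4 pooled. An equal mix of E7 with M1 and M2 gave 0.892. Genes are not independent replicates, and these values are descriptions.

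Against E7, 814 of 9134 tested genes were at least 4-fold higher in E1 (8.91%) and 351 at least 4-fold lower (3.84%), with a median log2 ratio over all tested genes of 0.01. A gene was tested at 10 CPM or more in either group and with a count in 25% of the cells of the higher group. All 15 mesenchymal genes were tested and 4-fold higher (median log2 ratio 5.30), as were 11 of 12 MSC-L genes (4.90). The 15 endothelial genes had a median of -1.19 with none past 4-fold, and the 11 tested of 12 sinusoidal genes a median of -1.50 with 1 lower. Mesenchymal genes were far above E7, and endothelial and sinusoidal genes were below it by less than 4-fold in the median.

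Against E3 and E4 pooled, 966 of 9459 genes were 4-fold higher in E1 (10.2%) and 832 lower (8.8%). All 7 Sca-1-high endothelial genes and 13 of 15 arterial genes were 4-fold lower, with medians of -4.35 and -4.53, while 7 of 10 tested sinusoidal genes were higher (3.03). The endothelial share of E1 was thus of the sinusoidal kind by these lists. Against M1 and M2, the 15 endothelial genes had a median of 7.31 and the 15 mesenchymal genes a median of -0.82.

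The leptin receptor gene *Lepr* ran from 940 over 2847 to 5065 CPM per E1 well, with 3060 CPM pooled, 155 in E7 and 3006 in M1 and M2. Every E1 well lay above the E7 pool. The chemokine gene *Cxcl12* ran from 20777 over 27200 to 44916 CPM, with 29545 pooled, 1007 in E7 and 43556 in M1 and M2. *Stab2*, a scavenger receptor of sinusoids, ran from 0 over 2598 to 6652 CPM, was carried by 12 wells, and stood at 2986 pooled, 8448 in E7 and 0.541 in M1 and M2. *Stab2* thus varied among the wells from absent to within the E7 range, while *Lepr* and *Cxcl12* were present in each.

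Of the genes with the largest ratio to E7, the collagenase gene *Mmp13* had the highest (log2 8.12, 286 CPM), with 55.9% of its counts in 1 well. Next were *Abca8a* (7.63, a lipid transporter), *Efemp1* (7.60, a matrix glycoprotein) and *Dcn* (7.42, the proteoglycan decorin). *Dcn* stood at 389 CPM in E1, 1.27 in E7 and 800 in M1 and M2. The largest decreases were in *Car2* (-4.09, a carbonic anhydrase) and *Ccbl1* (-3.69, an aminotransferase). Only 30 of 10913 genes (0.275%) were 4-fold above the higher of E7 and of M1 with M2, so few genes of E1 exceeded both.

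Each well was also fitted as a non-negative sum of 5 reference profiles. Of the 94 wells of the M3 to M5 reference, 72 carried the mesenchymal, 9 the blood and 2 the megakaryocyte programme. A weight on M3 to M5 is thus no measure of mesenchymal RNA alone. In E1 the weight of M1 and M2 ran from 40.4% over 55.5% to 88.1%, and that of E7 from 0.523% over 38.4% to 55.1%. The 3 mesenchymal references together had a median weight of 60.6%. Old SEC cell 2 of E1 had a mesenchymal weight of 93.8% and 2 endothelial genes (188 CPM summed), and young SEC cell 4 had 6. Young AEC cell 1, the only E1 cell sorted as AEC, had 21.6% of E3 with E4 and 2.19% of E7, and carried all 7 Sca-1-high genes. In this well the endothelial RNA was of the kind of its own sort gate.

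Mural and blood markers were also read in E1. The mural programme was carried by 13 of 14 wells, and by 54 of 136 wells (39.7%) of M1 with M2. Pericyte genes summed to 2327 CPM, led by *Pdgfrb* at 813, against 1900 in M1 and M2 and 2790 in E7, where *Abcc9* alone gave 2018. Smooth muscle genes summed to 396 CPM, against 427 in M1 and M2. The source of the mural genes in E1 was not tested. Blood genes summed to 85.8 CPM, led by *Fcer1g* at 26.3, with *Ptprc*, *Cd52*, *Cd37* and *Vav1* at 0.

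**Figure D2:**
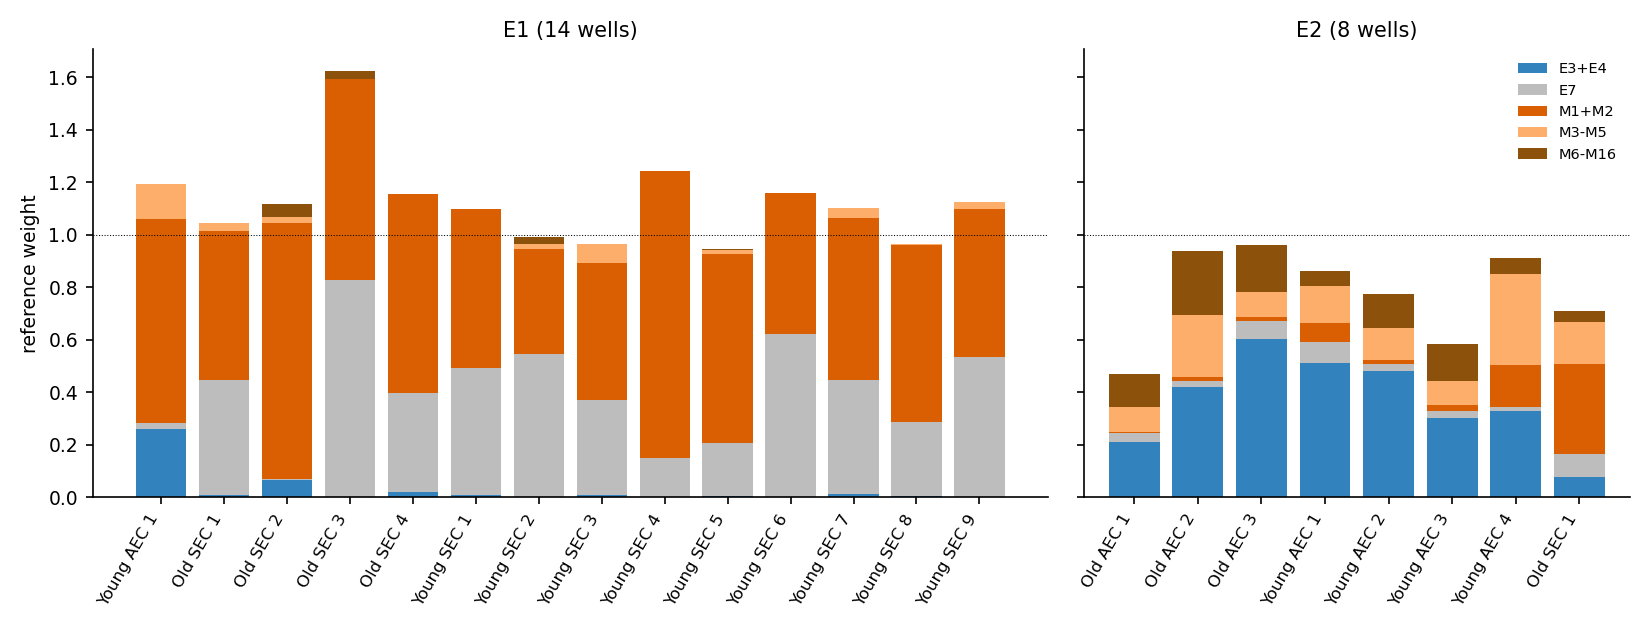
Weights of the 5 reference profiles in each well of E1 and E2. No reference holds mural cells, and the dotted line marks a sum of 1.

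Cluster E2 carried a smooth muscle programme, and in most wells little endothelial RNA. All 8 wells carried the mural programme with 14 to 18 of 20 genes (median 16). All 20 mural genes guided the clustering, so the mural content of E2 in part restates how the clusters were made. Endothelial genes ran from 1 over 3 to 12, so 6 of 8 wells did not reach 5. The young AEC cells 1 and 2 of E2 are the exceptions, with 11 and 12 endothelial genes (6957 and 4525 CPM summed) beside 15 and 16 mural genes. The sort label of AEC or SEC is therefore not borne out by endothelial markers in 6 wells.

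Against E3 and E4 pooled, 1031 of 9178 genes were 4-fold higher in E2 (11.2%) and 1649 lower (18%), with a median over all tested genes of -0.17. All 10 smooth muscle genes were higher (median 6.85), as were 9 of 10 pericyte genes (4.21). Of the endothelial genes 13 of 15 were lower (-2.76), of the Sca-1-high genes 6 of 7 (-3.28) and of the arterial genes 9 of 15 (-2.71). Against E7, 1353 of 9251 genes were higher (14.6%) and 1816 lower (19.6%). In these comparisons E2 had the largest shares of changed genes of the 4 clusters, and it also had the fewest cells. Against E3 alone the share higher was 13.6% in E2 and 13.7% in E1.

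*Acta2*, smooth muscle actin, ran from 1843 over 12726 to 37405 CPM per E2 well, against 102 pooled in E3 and 32.5 in E4. *Myh11*, smooth muscle myosin, ran from 1239 over 5366 to 7238, against 22.9 and 20.1. *Notch3*, a Notch receptor of mural cells, ran from 923 over 2533 to 8035, against 23.8 and 57.2. For *Myh11*, every E2 well lay above the highest well of E3 and of E4, while for *Acta2* and *Notch3* the highest wells of E3 or E4 reached into the E2 range. *Rgs5*, a regulator of G-protein signalling found in pericytes, was carried by 5 of 8 wells and ran from 0 to 23206 CPM, so the wells differed widely in it.

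The largest ratios to E3 and E4 were those of *Synpo2* (log2 8.48, an actin-binding protein), *Kcne4* (8.18, a potassium channel subunit), *Olfr78* (8.15, an olfactory receptor family member) and *Parm1* (8.13). *Myocd*, the coactivator that drives smooth muscle genes, was at 357 CPM (8.13). *Cd34*, a sialomucin of endothelial and progenitor cells, had no count in E2 (limit 0.866 CPM), against 634 CPM in E3 and 834 in E4. *Il4ra* and *Btnl9* likewise had none. Of 12713 genes, 342 (2.69%) were 4-fold above the highest of the 5 references, so E2 held many genes that no reference had at that level.

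Of 6 mixes of 2 pools tried for E2, the best was 94% of E3 and E4 with M6 to M16, at a correlation of 0.649 across genes, against 0.647 for E3 and E4 alone. Without the wells of another programme the best mix held 82% of E3 and E4, at 0.637. In the reference fit of E2, E3 and E4 had a median weight of 48.3% and the mesenchymal references of 45.8% (30.0 to 76.8 over the wells), so the fit and the mix gave different shares. The weights summed to a median of 0.82. Mesenchymal genes per well ran from 3 over 5 to 6, with 1627 CPM summed, against 5694 in E1 and 9677 in M1 and M2. Among them *Pdgfrb*, a growth factor receptor that mural cells also have, was carried by all 8 wells at 785 CPM pooled. Blood genes summed to 14.7 CPM, led by *Fcer1g* at 9.52, with 5 of 15 genes at 0.

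**Figure D3:**
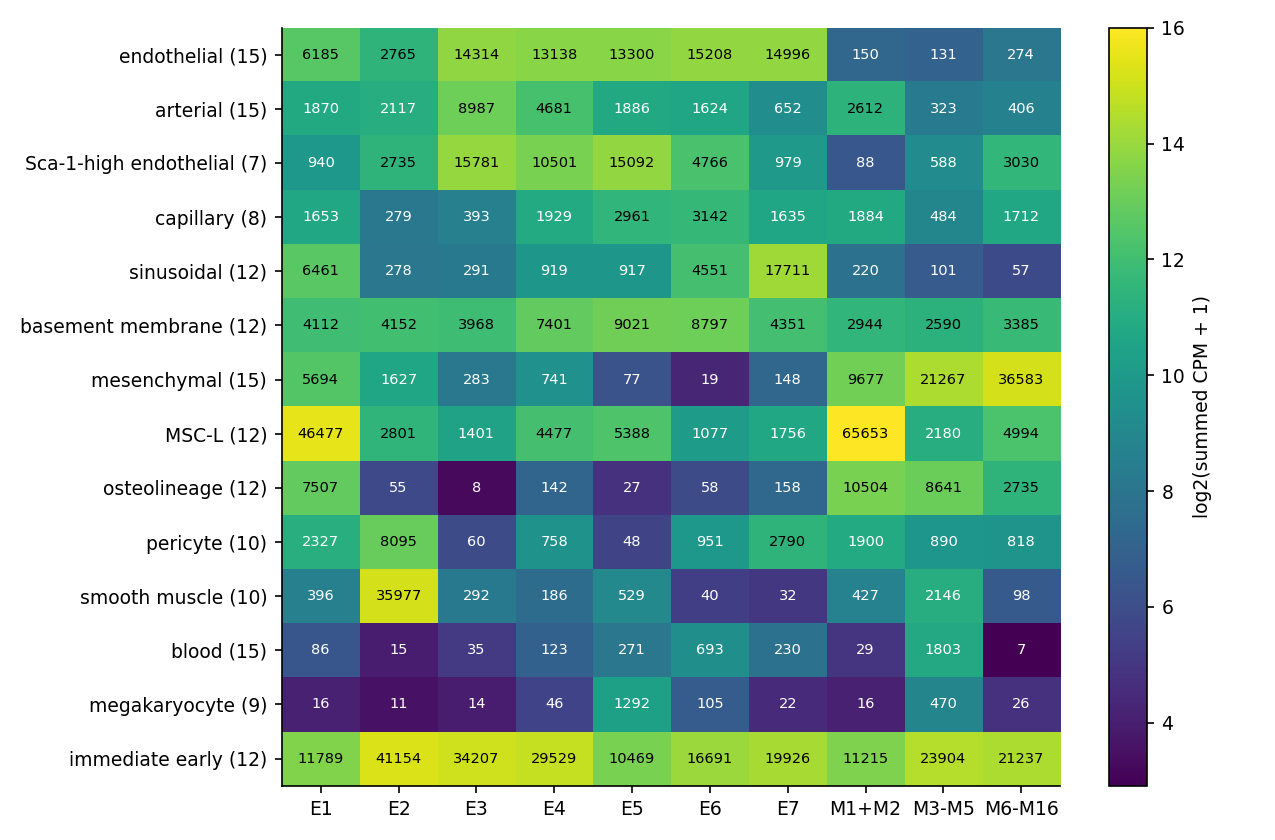
Summed CPM of the marker lists in pooled cells of the endothelial clusters and mesenchymal references, with the number of genes of each list in parentheses. Colour is on the log2 scale.

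Cluster E5 carried endothelial genes of the Sca-1-high kind within 4-fold of E3 and E4, with lower levels of arterial genes. Among its 37 cells, 35 were sorted as AEC. Endothelial genes per well ran from 9 over 13 to 15 in those 35. The correlation across genes was 0.841 with E3 and E4 pooled, 0.819 with E3, 0.827 with E4 and 0.746 with E7. Mixing in E7 left the value for the pool at 0.841 and gave 0.825 at 85% E3 and 0.828 at 95% E4. Under the study's heading of arterial for E5, the arterial list was divided here, with some genes low and others at the level of E3 and E4. Of its 15 genes, 13 guided the clustering.

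Against E3 and E4 pooled, 155 of 7567 genes were 4-fold higher in E5 (2.05%) and 550 lower (7.27%), with a median over all tested genes of -0.12. Within the third range of library numbers alone, with fewer cells, they numbered 510 and 1089. All 15 endothelial genes and all 7 Sca-1-high genes were tested, with none past 4-fold and medians of 0.12 and 0.15. Of the arterial genes 8 of 15 were lower, with a median of -2.11. Against E3 alone, 314 of 7350 genes were higher (4.27%) and 538 lower (7.32%), with 10 of 15 arterial genes lower (-2.65). Against E4 alone, 174 of 7797 genes were higher (2.23%) and 688 lower (8.82%), with 3 of 13 tested arterial genes lower (-1.01). The arterial difference was larger from E3 than from E4. Against E7, 474 of 7761 genes were higher (6.11%) and 833 lower (10.7%).

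*Gja4*, the gap junction protein connexin 37, was carried by 4 of 37 E5 cells and ran from 0 over 0 to 1044 CPM, with 39 pooled against 545 in E3 and 427 in E4. *Gja5*, connexin 40, was carried by 2 cells, with 98.5% of its counts in 1 cell, and stood at 64.6 CPM against 569 and 92.9. *Fbln5*, an elastic fibre protein, ran from 0 over 0 to 1232, with 103 pooled against 1389 and 1121. Most E5 cells did not carry these connexins, though the ranges overlap. *Sox17*, a transcription factor of arterial endothelium, stood at 398 CPM against 410 and 401, and *Efnb2*, a ligand of arterial endothelium, at 227 against 290 and 295. So part of the arterial list was kept in the pool: per cell, arterial genes had a median of 5 in E5, 12 in E3 and 8 in E4.

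In the list median the Sca-1-high genes were near the AEC-like clusters, while single genes differed. *Ly6a*, which encodes Sca-1, was at 1915 CPM in E5, against 1960 in E3 and 1488 in E4, and *Cav1*, the caveolar coat protein, at 5593 against 3654 and 1485. Of the 6 tested of 8 capillary genes, 2 were 4-fold higher than in E3 and E4 pooled (median 1.71), against 2.05% of all tested genes. *Cd300lg*, a receptor of capillary endothelium, stood at 831 CPM against 27.6 in E3 and 645 in E4. *Gpihbp1*, which carries lipoprotein lipase across capillary endothelium, stood at 934 against 58 and 623. E5 was near E4 and well above E3 in both genes.

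Among the genes with the largest increase over E3 and E4 were *Cdh23* (log2 5.43, a cadherin, carried by 18 cells), *Lpl* (4.95, lipoprotein lipase, 21 cells), *Slc28a2* (4.25, a nucleoside transporter) and *Fmo2* (3.91, a monooxygenase). *Lpl* ran from 0 over 307 to 5800 CPM, with 924 pooled against 18.3 in E3 and 40.0 in E4. *Lpl* and *Fmo2* are also among the genes of the M1 and M2 reference. The 12 MSC-L genes summed to 5388 CPM in E5, 1401 in E3 and 4477 in E4, led in each by *Cxcl12* (4274 CPM in E5, 4153 in E4). *Lepr* stood at 32.8 CPM in E5, 48.1 in E3 and 59.6 in E4. The weight of M1 and M2 ran from 0 over 1.46% to 39.2% in E5, and that of all mesenchymal references from 0 over 4.0% to 89.2%. The highest was old AEC cell 2, with 63.2% of M3 to M5, a weight sum of 0.31 and 3 mesenchymal genes (134 CPM). Old SEC cells 1 and 2 followed with 63.6% and 52.5%. Both SEC-sorted wells carried the megakaryocyte programme and not the mesenchymal one. Old AEC cell 2 carried neither programme, and the source of the weight in these wells was not tested. Mesenchymal genes summed to 76.6 CPM, led by *Pcolce* at 48.4 with *Fbln1* at 0. The part of MSC-L RNA in *Lpl* and *Fmo2* was not tested. *Csrnp1*, an immediate-response nuclear protein gene, had the largest decrease (-5.64, 3.74 CPM against 225 and 247). Of 12 immediate early genes, 2 were 4-fold lower, against 7.27% of all tested genes, with a median of -1.64, and their part in the other differences was not tested. Of 10100 genes, 58 (0.574%) were 4-fold above the highest of E3, E4 and E7.

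The megakaryocyte genes of E5 came from single wells. *Itga2b*, the platelet integrin gene, had the largest increase of all (log2 5.96), yet 64.4% of its counts were in 1 cell. Old SEC cells 1 and 2, the only E5 cells sorted as SEC, each carried 9 of 9 megakaryocyte genes (34965 and 58714 CPM summed) and 3 and 2 endothelial genes. Without these wells, and without the wells of E3 and E4 that carried another programme, *Itga2b* stood at 7.12 CPM in E5 and the genes above E3, E4 and E7 numbered 46. The arterial list kept a median of -2.08 with 8 of 15 genes lower, against 6.83% of all tested genes. The mesenchymal list did not. With all wells 8 of 10 tested genes were lower in E5 (median -3.23), against 7.27% of all tested genes. The same 10 genes had a median of 0.08 without the left-out wells. The median thus rested on the left-out wells, among them 6 of E3 and E4 that carried the mesenchymal programme. *Serpinf1*, which encodes a secreted serpin and is the most abundant gene of the list in E3 (196 CPM, against 2.67 in E5), did not: its log2 ratio was -5.36 with all wells and -5.28 without them. Blood genes summed to 271 CPM in E5, led by *Lcp1* at 91.9, with *Cd52* and *Cd37* at 0 and 40.9% of the counts in 1 well.

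Cluster E6 carried genes of both the Sca-1-high and the sinusoidal lists in the same wells. At 10 CPM no well carried the mesenchymal programme and 1 carried the blood programme. It held 10 cells sorted as AEC and 14 sorted as SEC. At least 5 of 7 Sca-1-high genes together with at least 5 of 12 sinusoidal genes were carried by 22 of 24 cells (91.7%, 73.0 to 99.0), 9 of 10 sorted as AEC and 13 of 14 sorted as SEC. This joint count was chosen after the values were seen. It was 2 of 60 in E3, 17 of 59 in E4 (28.8%, 17.8 to 42.1), 7 of 37 in E5, 11 of 105 in E7 (10.5%, 5.35 to 18) and 2 of 14 in E1. Joint carriage was thus common in both sort gates of E6 and also present in part of E4. All 7 Sca-1-high and 10 of 12 sinusoidal genes guided the clustering, so these shares in part restate how the clusters were made.

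Within E6, Sca-1-high genes summed to 1016 over a median of 3316 to 5551 CPM in the 10 cells sorted as AEC and to 357 over 6733 to 15139 in the 14 sorted as SEC. Sinusoidal genes summed to 1090 over 4525 to 8396 and to 183 over 4551 to 11540, and immediate early genes to 3346 over 31580 to 49198 and to 173 over 1577 to 37893. The median of the Sca-1-high list was higher in the cells sorted as Sca-1lo. The gate reads Sca-1 protein at the surface, while the list sums RNA of 7 genes, of which *Ly6a* alone encodes Sca-1. Its level by gate is not given here, so the list median does not speak to Sca-1 itself. The ranges overlap in each list, and the difference was not tested. Age goes with the gate in E6, and the part of age or of the immediate early genes was not tested.

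Against E7, 422 of 8551 genes were 4-fold higher in E6 (4.94%) and 391 lower (4.57%), with a median over all tested genes of 0.12. With fewer cells, the SEC-sorted E6 cells alone gave 424 higher and 620 lower, and the AEC-sorted alone 612 and 1022. Of 7 Sca-1-high genes 5 were higher (median 2.88), of 12 basement membrane genes 5 were higher (1.92), and of 11 tested sinusoidal genes 3 were lower (-1.57). Against E3 and E4 pooled, 368 of 8694 genes were higher (4.23%, and more within the third range of library numbers alone) and 479 lower (5.51%). There 9 of 11 tested sinusoidal genes were higher (2.99), 12 of 15 arterial genes lower (-2.86) and 2 of 7 Sca-1-high genes lower (-1.52). Against E4 alone, 329 of 8792 genes were higher (3.74%) and 444 lower (5.05%). There 6 of 13 tested arterial genes were lower, with a median of -1.57. E6 lay between the pools in the Sca-1-high and sinusoidal lists, and in the arterial list it was nearest to E7, with a median of 1.30 over the 8 genes tested there. Per cell, arterial genes had a median of 3.5 in E6, 3 in E7 and 8 in E4.

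*Stab2* ran from 0 over 606 to 2867 CPM in E6 and from 1587 over 8053 to 25817 in E7, with pooled levels of 714, 8448, 24.1 in E4 and 5.62 in E3. *Mrc1*, the mannose receptor, ran from 0 over 146 to 762 in E6, with 205 pooled against 858 in E7 and 15.7 in E4. The median E6 cell lay below every E7 cell in *Stab2*, and the ranges overlap at their ends. *Cd34* was carried by all 24 E6 cells and ran from 54 over 575 to 3166 CPM, against a median of 0 and a highest value of 477 in E7. *Cav1* ran from 0 over 311 to 2004, with 541 pooled against 5.15 in E7 and 1485 in E4. *Cd34* was near its level in E4 (834 pooled, against 924 in E6), while *Cav1* and *Stab2* lay between the clusters. M1 and M2 had little of these endothelial genes, with *Cd34* at 0.853 CPM and *Stab2* at 0.541.

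A second measure used genes that separate E3 and E4 from E7 by at least 8-fold: 44 AEC-side and 31 SEC-side genes. E6 cells carried 1 to 13 AEC-side genes (median 6), against a median of 1 in E7, 23 in E4 and 27 in E3. They carried 0 to 14 SEC-side genes (median 5), against 21 in E7. Cells sorted as AEC had medians of 7 and 4.5, and cells sorted as SEC 6 and 5.5. E6 thus carried some genes of each side, and fewer than the clusters that define that side. These genes are not particular to endothelium, since M1 and M2 cells carried a median of 8 AEC-side and 4 SEC-side genes. Of the 44 and 31 genes, 15 and 4 are not among the genes that guided the clustering, and on these alone E6 had medians of 23.3% and 0.

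**Figure D4:**
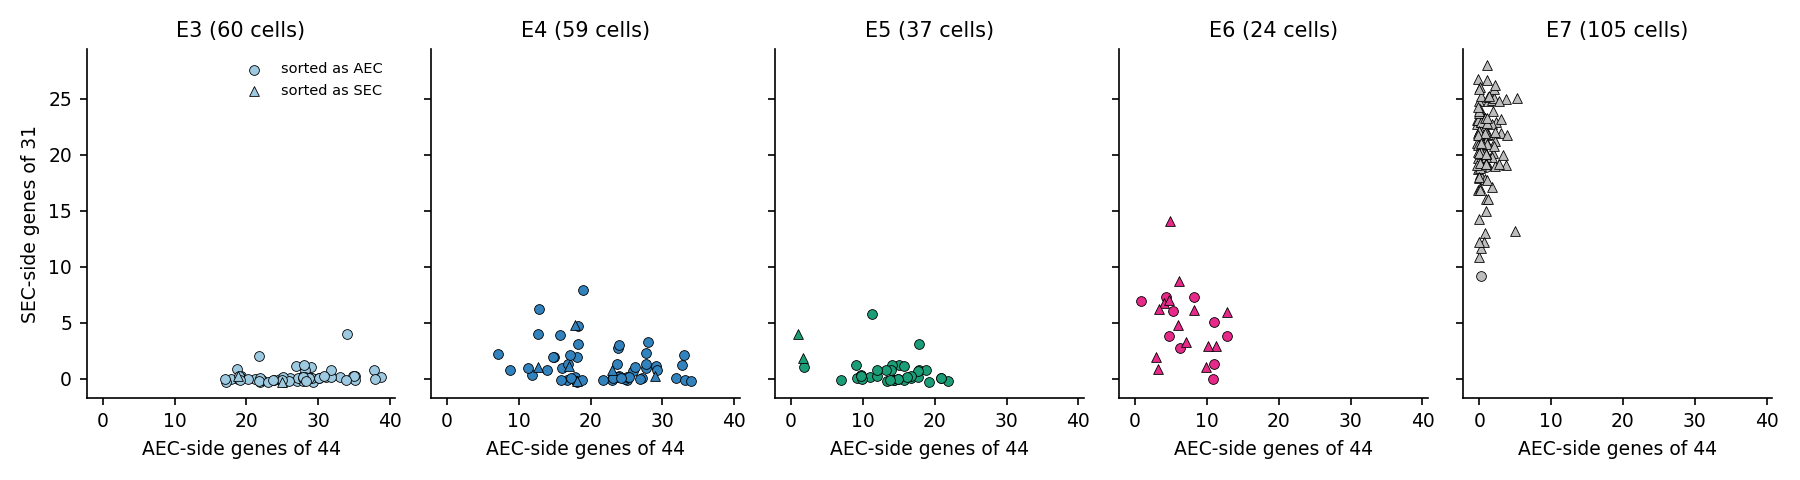
AEC-side and SEC-side genes carried by each cell of E3, E4, E5, E6 and E7, at 10 CPM or more. The genes were chosen on E3, E4 and E7, whose positions are therefore the rule. Points are shifted slightly to separate them.

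In the reference fit, E3 and E4 had a weight of 4.75% over 40.6% to 82.5% in E6, and E7 of 14.1% over 41.4% to 88.1%. Of the 50 genes of each reference, 41 for E3 with E4 and 43 for E7 guided the clustering. These weights thus in part restate how the clusters were made, and the fit without guide genes was made for E1 alone. The mesenchymal references together had a median weight of 9.8% in E6, against 4.0% in E5, 3.62% in E4 and 0.836% in E7. It ran from 1.93% over 17.4% to 46.3% in cells sorted as AEC and from 0 over 1.85% to 68.7% in cells sorted as SEC. The ranges overlap and the difference was not tested. The highest was old SEC cell 1, which carried the blood programme and not the mesenchymal one. Its 68.7% was all on M3 to M5. In AEC-sorted cells the median weight was 14.0% on M3 to M5, 1.03% on M1 with M2 and 0.349% on M6 to M16. In SEC-sorted cells each of these medians was 0. Immediate early genes also differed between the gates (medians of 31580 and 1577 CPM summed), and their part in this weight was not tested. Mesenchymal marker genes had a median sum of 7.7 CPM in AEC-sorted and 7.34 in SEC-sorted E6 cells. The weights summed to a median of 0.65 in E6, 1.24 in E3, 0.92 in E4, 0.85 in E5 and 1.03 in E7, which is a scale and no measure of fit.

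Across genes, E6 correlated at 0.824 with E7, 0.817 with E4 and 0.755 with E3. Without the wells of another programme the order of the first pair turned, with 0.855 for E4 and 0.847 for E7. E6 correlated at 0.852 with a mix of E7 and 39% E4 (0.885 at 50% without the wells of another programme). Genes detected at equal depth numbered 4930 in E6, near E4 (4865) and E7 (4782).

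Of 10209 genes, 85 (0.833%) were 4-fold above the higher of E7 and of E3 with E4, and 56 without the wells of another programme. With E3 and E4 taken separately, as for E5, it was 56 of 10651 (0.526%), and 36 without those wells. The largest ratios were those of *Nostrin* (log2 3.49, a regulator of nitric oxide synthase traffic, 58.8% of counts in 1 cell), *Piezo2* (2.70, a mechanically gated channel), *Rundc1* (2.64, not among the 10 largest without the wells of another programme) and *Kit* (2.54, the stem cell factor receptor, 54% in 1 cell). *Aplnr*, the apelin receptor, ran from 0 over 472 to 3885 CPM and was carried by 18 cells (log2 1.97). Against E7 the largest increases were in *Cd34* (6.28), *Lamb1* (6.21, a laminin chain), *Ednrb* (6.06, an endothelin receptor) and *Thbs1* (5.94, thrombospondin). *Ptger2*, a prostaglandin receptor, had no count in E6 and 117 CPM in E7.

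*Lepr* was lower in E6 than in E7 (log2 -6.19, 1.14 against 155 CPM, and -5.54 without the left-out wells). Mesenchymal genes summed to 19.1 CPM in E6, the lowest of the endothelial clusters, led by *Mmp2* at 6.35 with *Islr* at 0, and 20 of 24 cells carried none. Blood genes summed to 693 CPM, led by *Lcp1* at 146, with none at 0, and 75.7% of the counts were in 1 well. That well, old SEC cell 1 of E6, carried 15 of 15 blood genes (9087 CPM) and 1 endothelial gene. With it, 3 of 6 tested blood genes were 4-fold higher than in E7 (median 1.40), against 4.94% of all tested genes. Without it and the left-out wells of E7, none of 3 was (-0.27), against 4.56%.

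The niche factor list was compared with E7 for E1 and E6, and with E3 and E4 pooled for E5. By this, 7 of 13 tested niche factor genes were 4-fold higher and 1 lower in E1 (8.91% and 3.84% of all tested genes), none higher and 2 of 11 lower in E5 (2.05% and 7.27%), and 1 of 10 higher and none lower in E6 (4.94% and 4.57%). The medians were 3.44, -0.08 and 0.24. In E2, against E3 and E4 pooled, 1 of 12 was higher and 4 lower (11.2% and 18% of all tested genes), with a median of -0.63. The comparators differ, so these values do not rank the clusters. *Kitl*, which encodes stem cell factor, stood at 758 CPM in E1, 796 in E5 and 89.8 in E6, against 479 in E3, 466 in E4 and 24.5 in E7. Per cell it ran from 5.73 over 459 to 2761 CPM in E5 and from 0 over 26.6 to 440 in E6. E5 was above both AEC-like clusters, and E6 between them and E7. *Col4a1*, a basement membrane collagen, stood at 1519 CPM in E5 and 1420 in E6, against 337 in E3, 1191 in E4 and 373 in E7, so both clusters were near E4.

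The clusters drew unequally on sorts and ages. E1 held 1 young AEC, 9 young SEC and 4 old SEC, and E2 held 4 young AEC, 3 old AEC and 1 old SEC. E5 held 19 young AEC, 16 old AEC and 2 old SEC. E6 held 8 of 84 young AEC (9.52%, 4.2 to 17.9), 2 of 82 old AEC (2.44%, 0.297 to 8.53), 2 of 70 young SEC (2.86%, 0.348 to 9.94) and 12 of 71 old SEC (16.9%, 9.05 to 27.7). Within the third range of library numbers, which holds all cells sorted as SEC, E6 took 5 of 24 young AEC (20.8%, 7.13 to 42.2) and 1 of 23 old AEC (4.35%, 0.11 to 21.9). There the share of young AEC was above that of old SEC, the reverse of the order over all ranges, with overlapping intervals. Young cells of E6 were mostly from the AEC gate and old cells mostly from the SEC gate. With no mouse named, ages and animals cannot be told apart.

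The library numbers in the labels fall into 3 ranges, which also differ between clusters. The third range held 57 of the 83 cells, with 13 of 14 in E1, 19 of 37 in E5 and 20 of 24 in E6, and no E6 cell came from the first. Of the comparators, it held all 105 E7 cells, 10 of 60 in E3 and 16 of 59 in E4. Within the third range alone, E6 genes above both pools numbered 154. Arterial genes per cell in that range had a median of 4 in E5, 12.5 in E3 and 10 in E4, so the arterial difference was also seen there.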

How the data were processed

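Single cells were sequenced with a plate protocol based on Smart-Seq2, without molecular identifiers. Raw counts per gene were deposited by the authors, who used HTSeq after alignment to GRCm38.p4 by GSNAP (2015-09-29). Of 46078 entries, 270 repeated symbols were summed, giving 45771 nuclear and 37 mitochondrial genes. Sort, age and cluster came from the labels.

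Levels are pooled CPM of nuclear genes, and log2 ratios use a pseudocount of 1 CPM. A gene was tested at 10 CPM in either group with a count in 25% of cells of the higher group, and called at 4-fold. Reference weights are non-negative least squares over 50 genes for each of 5 references, at 50 CPM and in 50% of cells. Of the 50, genes that guided the clustering numbered 41 for E3 with E4 and 43 for E7. They numbered 28 for M1 with M2, 4 for M3 to M5 and 5 for M6 to M16. AEC-side and SEC-side genes were 8-fold apart, at 50 CPM, in 50% or more of cells of their side and 10% or less of the other. Intervals are exact (Clopper-Pearson for shares, Poisson for counts) at 95% and cover counting error only, since reads of amplified molecules are not independent. A count of 0 has a limit of 3 counts or cells. Nuclear counts per cell ran from 79537 over 307050 to 712039 in the 83 cells. Each cluster was 1 sample, so no test was made.

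Named genes are *Pecam1*, *Cdh5* and *Emcn*, genes of the lists, and for each cluster the 10 largest increases and 5 largest decreases over its first comparator (E7 for E1 and E6, E3 with E4 for E2 and E5), in 50% of cells of the higher group and in the same direction against the other comparator and in each age with 3 cells. For E6 the 10 largest ratios to the higher of both pools were added. *Xist* was read for the sex of the cells. Not every gene so selected is named. Members and lists were chosen with earlier results of these data known. Wells left out in places carried another programme or fewer than 5 endothelial genes.

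Alternatives were the mean of CPM over cells, thinning to 100000 counts, no filter, a pseudocount of 0.1 CPM, the third library range alone, other marker limits, lists without clustering guide genes, other reference sizes and scales, each age alone and leaving out wells. Of the list genes, 2 were not in the table under their symbols. The steps were tested on simulated data. Computation used scipy 1.17.1 and numpy 2.4.6 on tables held in pandas 2.3.3, under Python 3.11.15, with figures from matplotlib 3.10.9.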

Additional observations from a re-analysis of the deposited data

How the results depend on the processing

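Of 583 values under alternative settings, 518 stayed within the limits set for each result, 64 moved and 1 reversed. Leaving out wells of another programme, an alternative chosen after seeing the data, turned the median log2 ratio of the mesenchymal list in E5 over E3 with E4 from -3.23 to 0.08, over the same 10 genes, and gave 56 E6 genes above both pools. With no filter more genes are tested, and 4-fold higher and lower genes numbered 1413 and 1031 for E1 against E7, 1569 and 1789 for E1 against E3 with E4, 664 and 1627 for E5 against E3 with E4, 1164 and 1096 for E6 against E7, and 993 and 1263 for E6 against E3 with E4. Lower genes in E2 then numbered 3446 against E3 with E4 and 3510 against E7. The third library range alone has fewer cells, and gave 510 and 1089 for E5 against E3 with E4, 814 higher for E6 against E3 with E4 and 154 for E6 above both pools. Genes lower in E6 than in E7 numbered 620 with SEC-sorted and 1022 with AEC-sorted E6 cells alone, an alternative chosen after seeing the data with fewer cells each. Markers read at 1 CPM gave the blood programme in 10.8% of E5 and 29.2% of E6 wells, both programmes in 100.0% of E1 wells, 25.8% of SEC-side genes per E6 cell and 43.2% of AEC-side genes per E5 cell. A limit of 3 genes gave the blood programme in 10.8% of E5 wells. Without guide genes of the clustering, 6 of 15 mesenchymal genes were left and 21.4% of E1 wells carried 5 of them. AEC-side genes then had medians of 23.3% in E6 and 26.7% in E5, and SEC-side genes 0 in E6. The mesenchymal weight of E1 was 44.3% on the log2 scale. Where the construction of a setting does not show it, the cause was not tested. Counts past 4-fold stayed in 76 of 95 values, shares of wells in 34 of 39, medians per cell in 13 of 19 and list medians in 391 of 426. Of 71 list medians, 13 moved with old and 5 with young cells alone, which have fewer cells, among them vascular factors in E1 over E7 (-1.11 to -2.35, old), arterial genes in E2 over E3 with E4 (-2.71 to -7.04, old) and megakaryocyte genes in E5 over E3 with E4 (4.69 to 0.69, young). The mural list without guide genes gave no value, since 0 of 20 genes were left. The planned ratio to spike-in counts was not computed, since the table holds 0 spike-in entries. No paired analysis was possible because no label names the mouse. E2 with 8 wells and E1 with 14 bound shares only widely, and in shallow wells a gene under 10 CPM may be missed: 2 endothelial cells had fewer than 100000 nuclear counts.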
